A study of Mus musculus with 4 samples.

Results

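The 10 transcription factor genes described here (Gata4, Gata5, Gata6, Hand1, Hand2, Nfatc1, Tal1, Nkx2-5, Mef2c and Isl1) were taken by symbol from the 32285 gene rows of single-cell RNA-seq count matrices of embryonic mouse ventricle, and all 10 were found. Unique molecular identifiers (UMIs, counts of captured RNA molecules) of each gene were summed per library in cells gated as endocardium, coronary endothelium, cardiomyocyte, mesenchyme or epicardial from marker genes that include none of the 10. The study asked how endothelial Ets1, an ETS-family transcription factor, affects the ventricular wall. The controls were Tie2Cre; Ets1 fl/+ and the endothelial knockouts (Ets1 eKO) were Tie2Cre; Ets1 fl/fl, with 2 libraries of each, every library a pool of 3 ventricles at embryonic day 14.5. Cre was thus present in both groups, and the controls had already lost one Ets1 allele in the same cells. The Tie2 promoter drives Cre in all endothelium, endocardium and coronary vessels alike, and cells that descend from endothelium keep the recombined allele. All 4 libraries came from untreated C57BL/6 embryos in batch 1, and embryos of both sexes were used without recording sex.

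GATA factors are zinc-finger proteins that bind GATA-containing DNA, and Gata4, Gata5 and Gata6 act in heart muscle, endocardium and epicardium. Hand1 and Hand2 are basic helix-loop-helix (bHLH) factors of the ventricles, Tal1 is a bHLH factor of blood and endothelial precursors that the endocardium also uses, and Nfatc1 is a calcium- and calcineurin-activated factor required in the endocardium for valve formation. Nkx2-5 and Mef2c are core factors of cardiac muscle, Mef2c also being used by endothelium, and Isl1 marks second heart field progenitors before they differentiate.

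Start-site windows (250 bases before to 50 bases after the start, GRCm38.p6, from RefSeq) were at hand for 6 of the 10 genes, 9 windows in all: Gata5, Tal1, Hand2, Mef2c, Isl1 and Nkx2-5. The 3 genes below are shown because their windows hold AGATAA or TGATAA, letters that GATA factors read, on either strand; capitals mark each match. Tal1 (window chr4:115056176-115056475, plus strand) has 1 match, Hand2 (chr8:57320733-57321032, plus strand) has 2 and Isl1 (chr13:116309639-116309938, minus strand) has 2.
Tal1: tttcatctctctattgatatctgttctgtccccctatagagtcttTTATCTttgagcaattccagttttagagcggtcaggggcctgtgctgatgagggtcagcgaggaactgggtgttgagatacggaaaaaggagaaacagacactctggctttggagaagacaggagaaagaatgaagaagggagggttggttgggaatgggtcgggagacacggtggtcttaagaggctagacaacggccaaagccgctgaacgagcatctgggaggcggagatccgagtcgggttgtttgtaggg
Hand2: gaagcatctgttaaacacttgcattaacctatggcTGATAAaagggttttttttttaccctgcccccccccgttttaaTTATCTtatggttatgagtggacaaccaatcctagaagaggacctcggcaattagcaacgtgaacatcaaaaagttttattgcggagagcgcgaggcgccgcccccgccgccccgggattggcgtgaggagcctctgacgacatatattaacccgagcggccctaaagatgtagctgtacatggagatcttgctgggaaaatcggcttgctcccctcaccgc
Isl1: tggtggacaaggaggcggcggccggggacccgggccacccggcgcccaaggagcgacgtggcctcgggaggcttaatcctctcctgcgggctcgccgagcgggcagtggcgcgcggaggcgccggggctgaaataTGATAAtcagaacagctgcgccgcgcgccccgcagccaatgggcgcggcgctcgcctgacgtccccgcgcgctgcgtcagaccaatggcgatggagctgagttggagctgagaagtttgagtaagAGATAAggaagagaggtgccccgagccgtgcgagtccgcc
Of 32851 RefSeq windows of the same length, 18.6% hold at least 1 such match. The Gata5, Nkx2-5 and Mef2c windows and the other Tal1 window hold none, which says only that these letters are not in those 300 bases. Isl1 gave no UMI in any endocardial cell, which by a floor of 3 counts allows up to 0.43 to 0.55 CPM per library, where CPM is the UMIs of a gene per 1000000 UMIs of its class.

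The matrices held 45551 barcodes, of which 41563 passed the cell filter and 37913 remained after doublets were removed, and 191 barcodes occurred in more than 1 library. Median UMIs per barcode were 8222 to 8630 in 3 libraries and 5632 in Ets1 eKO replicate 2, so that library is the shallowest per cell. The classes held 3450 endocardial cells (3266 mural and 184 valve), 1284 coronary, 18919 cardiomyocyte, 4368 mesenchyme and 561 epicardial cells. The gates were set on these marker genes, so sums of the markers describe the classes and cannot test their names. The 8 endothelial genes summed to 4033 to 4496 CPM in endocardium against 17.4 to 28.7 in cardiomyocytes. The 7 coronary genes summed to 7498 to 10791 CPM in coronary endothelium against 210 to 264 in endocardium. Prox1, a homeobox gene in the valve gate, averaged 346 CPM in valve and 26.7 CPM in mural cells, and Nfatc1, often used to find such cells, took no part in any gate. No source used here says whether the pools came from separate litters, so p-values measure only the spread between these libraries, and counting intervals and floors cover counting error only. Ets1 itself checked the labels. It measured 279 and 263 CPM in the control mural endocardium and 122 and 95.9 CPM in the eKO, a log2 fold change of -1.27 (SE 0.14, adjusted p = 0.00061, edgeR's quasi-likelihood test, Benjamini-Hochberg adjusted over all genes tested, as for every adjusted p here). When either control library was left out no gene passed the threshold in mural endocardium, Ets1 included (adjusted p = 0.52 and 0.30, edgeR), although its log2 fold change stayed at -1.24 and -1.28.

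**Figure D1:**
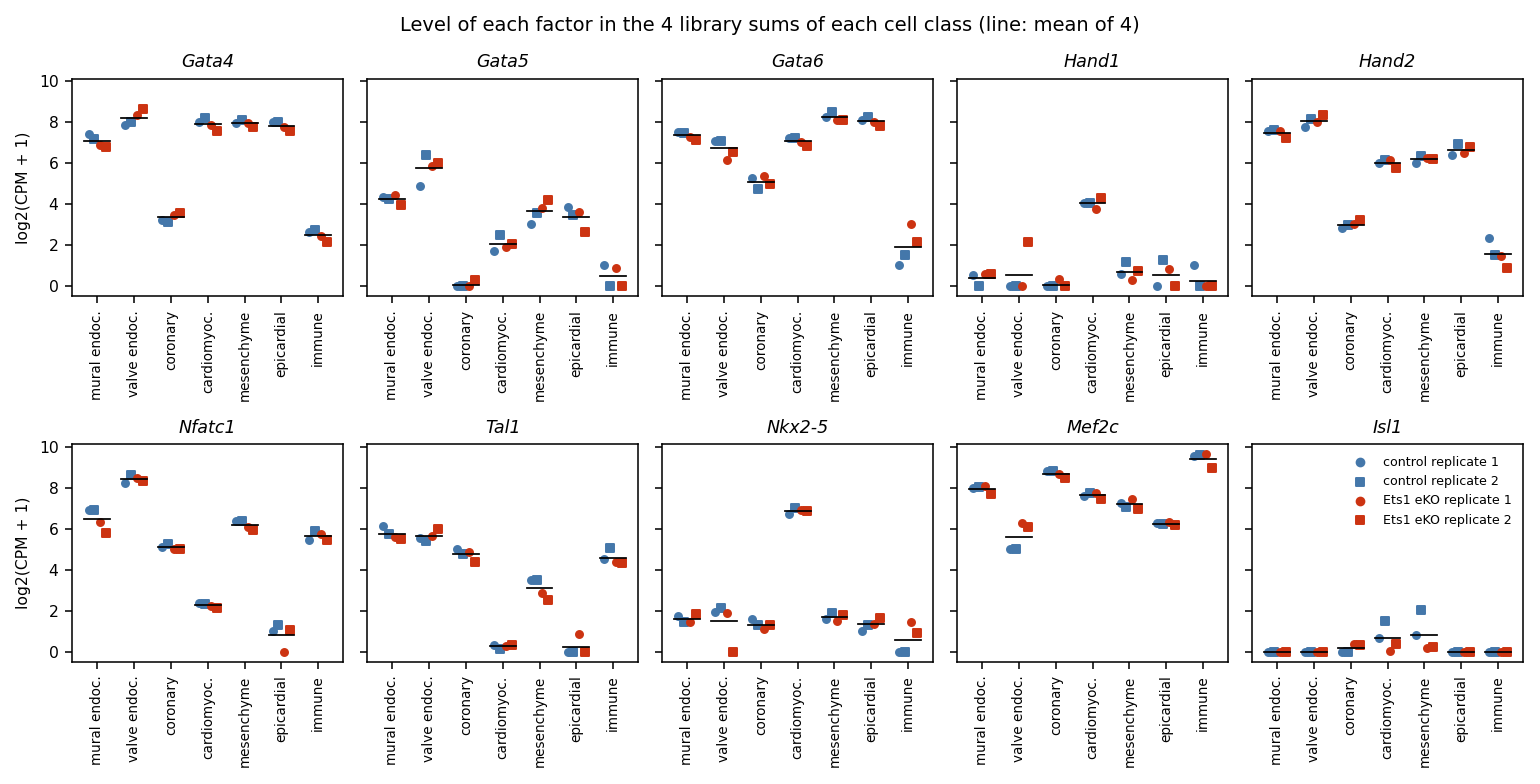
Level of each of the 10 factors, as log2(CPM + 1), in the 4 library sums of 7 cell classes; blue points are control, red points Ets1 eKO libraries, and the black line is the mean of 4. Nkx2-5 and Hand1 stand high in cardiomyocytes alone, Gata4, Gata5 and Hand2 drop to their lowest or near-lowest levels in coronary endothelium and immune cells, and Isl1 lies near 0 throughout. Heights of different genes are not comparable, since 3' tags capture genes unequally.

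Of 7 members tested between endocardium and coronary endothelium of the same libraries, 6 were higher in endocardium and 1 was lower, where 67.3% of all genes tested differed. Gata5 is among the 6, but with 1 coronary UMI it met the filter on low counts only through endocardium. Its direction was therefore set by that filter. The plot of levels by class shows the split gene by gene. Gata4, which activates cardiac genes together with Nkx2-5 and Mef2c, measured 123 to 172 CPM over the 4 endocardial sums and 7.95 to 11.1 CPM over the 4 coronary sums, a log2 difference of 3.75 (SE 0.13, adjusted p = 9e-12, edgeR). Hand2 measured 157 to 200 CPM in endocardium and 6.17 to 8.37 CPM in coronary endothelium, a log2 difference of 4.50 (SE 0.11). Neither gene's ranges overlapped between these classes in any library. Coronary Gata4 (8.43, 7.95, 9.98 and 11.1 CPM) was above its level in immune cells, which measured 3.5 to 5.81 CPM. The immune sums hold only 5, 3, 5 and 4 Gata4 UMIs, and this pair of classes was not tested. Gata5, a GATA factor of endocardial cells, gave 502 UMIs in endocardium and 1 UMI in coronary endothelium, a ratio per class total of 307 (95% counting interval 54.9 to 12151).

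Gata6, Nfatc1 and Tal1 were shared between both endothelia at unequal levels. Gata6 measured 140 to 178 CPM in endocardium and 25.6 to 40.5 CPM in coronary endothelium (log2 difference 2.05, SE 0.11). Nfatc1 measured 66.4 to 135 CPM against 30.8 to 37.6 CPM (1.46, SE 0.12), and Tal1 measured 44.9 to 67.2 CPM against 19.9 to 31.3 CPM (0.84, SE 0.09, adjusted p = 1.9e-06, edgeR). Mef2c ran the other way, with 349 to 445 CPM in coronary endothelium and 196 to 262 CPM in endocardium, a log2 difference of -0.97 (SE 0.06). Mef2c was thus the one tested member that was higher in the coronary vessels, and its ranges did not overlap.

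Within the endocardium, the valve cells differed from the mural cells in 6 of 7 members tested, where 23.6% of all genes did. Nfatc1 measured 303, 392, 357 and 324 CPM in valve endocardium against 119, 121, 78.8 and 53.9 CPM in mural endocardium (2 control libraries, then 2 eKO libraries), and its log2 difference, mural minus valve, was -1.96 (SE 0.16, adjusted p = 2.4e-08, edgeR). Every valve value was above every mural value. Gata4 (-1.18, SE 0.17), Gata5 (-1.65, SE 0.27) and Hand2 (-0.60, SE 0.14) were also higher in valve cells. Mef2c was lower there, with 31.2, 31.2, 76.2 and 66.2 CPM in valve cells against 203 to 274 CPM in mural cells (mural minus valve 2.25, SE 0.21), and Gata6 was lower as well (0.59, SE 0.15). Hand2 lost its call under the stricter gate (-0.33, adjusted p = 0.39, edgeR) and Gata6 when Ets1 eKO replicate 1 was left out (0.44, adjusted p = 0.072, edgeR). Tal1 did not separate the 2 kinds of endocardium, at 41.6 to 62.7 CPM in valve and 44.1 to 68.4 CPM in mural cells (0.08, SE 0.21). The valve class holds only 184 cells, and its sums of Mef2c and Tal1 rest on 67 and 64 UMIs.

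Against cardiomyocytes, 7 of 9 members tested differed in the endocardium, 4 higher and 3 lower, where a like share of all genes, 77.3%, differed. Tal1 (mean 0.21 CPM in cardiomyocytes) met the filter on low counts only through endocardium, and Hand1 only through cardiomyocytes. The directions of Tal1 and Hand1 were therefore set by that filter. Nkx2-5 measured 103, 128, 118 and 117 CPM in cardiomyocytes and 1.76 to 2.43 CPM in endocardium, a log2 difference of -6.13 (SE 0.11). Hand1, the left-ventricular Hand gene, measured 12.9 to 18.7 CPM in cardiomyocytes, and all 4 endocardial sums together held 10 Hand1 UMIs (-5.65, SE 0.25). In mural endocardium, coronary endothelium, mesenchyme and epicardial cells Nkx2-5 ran at a like low level, 1.05 to 2.73 CPM in every library. Tal1 (7.53, SE 0.16), Nfatc1 (4.38, SE 0.13), Gata5 (2.32, SE 0.17) and Hand2 (1.17, SE 0.05) were higher in endocardium. Gata4 was lower in endocardium (-1.12, SE 0.07), at 123 to 172 CPM against 188 to 297 CPM in cardiomyocytes. Gata6 and Mef2c differed by -0.11 each and were not called, and the outcome depends on the setting. When total counts replace trimmed-mean (TMM) scaling both turn to 0.26 and are called higher in endocardium (adjusted p = 0.00091 and 0.00090, edgeR), and with no filter on low counts both are called lower (-0.19 each, adjusted p = 0.016 and 0.014, edgeR). The change of scaling moved the median of all genes in this comparison from -0.03 to 0.33.

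**Figure D2:**
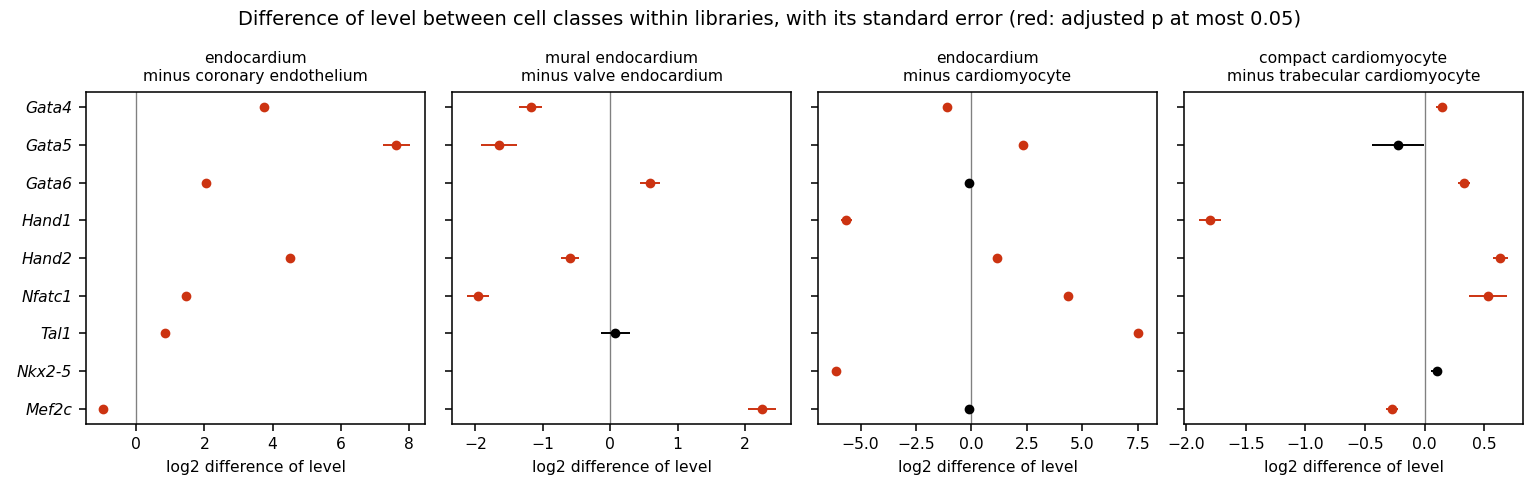
Log2 difference of level between pairs of cell classes for 9 factors (Isl1 is left out), with the standard error as a bar and red for an adjusted p of at most 0.05. Gata5, Hand2 and Gata4 lie far to the right between endocardium and coronary endothelium, Nfatc1 and Gata5 to the left between mural and valve endocardium, and Nkx2-5 and Hand1 far to the left between endocardium and cardiomyocytes.

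Compact and trabecular cardiomyocytes, gated by Hey2, Tnnt1 and Mycn against 6 trabecular genes, differed most in the Hand genes. Of 8 members tested, 4 were higher in compact and 2 in trabecular cells, where 49.9% of all genes differed. Hand1 measured 34.9, 37.5, 41.0 and 37.4 CPM in trabecular cells and 11.2, 10.3, 9.86 and 14.4 CPM in compact cells, a log2 difference, compact minus trabecular, of -1.80 (SE 0.09, adjusted p = 2.8e-12, edgeR). Hand2 ran in the opposite direction, with 58.2 to 76.9 CPM in compact cells and 36.0 to 47.2 CPM in trabecular cells (0.64, SE 0.06). The ranges of each Hand gene were separate between the layers in all 4 libraries. Gata6 (0.33, SE 0.05), Nfatc1 (0.53, SE 0.16) and Gata4 (0.14, SE 0.05) were higher in compact cells and Mef2c (-0.27, SE 0.05) in trabecular cells. Nfatc1 lay at only 2.94 to 5.93 CPM in both, and Gata4 lost its call without Ets1 eKO replicate 1 (0.10, adjusted p = 0.15, edgeR). Nkx2-5 differed by 0.10 (SE 0.05) and was not called, but it was called higher in compact cells under total count scaling (0.19, adjusted p = 0.0019, edgeR) and with no filter on low counts (0.14, adjusted p = 0.039, edgeR).

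All 10 are protein-coding genes in the GENCODE vM21 annotation of GRCm38. Gata4 (chr14:63198922-63271692) was highest of the 6 main classes in valve endocardium (mean 301 ± 72.5 CPM, SD, n = 4), but mesenchyme (247 ± 21.9), cardiomyocytes (244 ± 46.1) and epicardial cells (229 ± 32.9) overlapped with it and with one another, and only mural endocardium (136 ± 27.5) and coronary endothelium (9.36 ± 1.44) stood below. Gata6 (chr18:11052064-11085635) was highest in mesenchyme (304 ± 37.9 CPM) and epicardial cells (263 ± 31.8), which overlapped, ahead of mural endocardium (163 ± 18.0). Hand2 ran from valve endocardium (270 ± 45.8) to mural endocardium (181 ± 21.4), epicardial cells (102 ± 16.7) and mesenchyme (73.2 ± 7.25) without overlap between those neighbours, and mesenchyme overlapped with cardiomyocytes (63.7 ± 7.84). Nfatc1 (chr18:80606205-80713071) was highest in valve endocardium (344 ± 38.8), while mural endocardium (93.1 ± 32.5) and mesenchyme (72.9 ± 11.5) overlapped. These orders describe the members on the CPM scale and were not tested beyond the pairs above.

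Nfatc1 was also present in mesenchyme, at 83.3, 81.8, 66.7 and 59.7 CPM. In that class the 8 endothelial markers summed to 40.7 to 58.2 CPM, and all 8 were detected. Cdh5, the endothelial cadherin among them, averaged 1.64 CPM. These markers are gate genes, so the gate itself keeps them low in mesenchyme, and no test of the Nfatc1 value can be drawn from them. Cardiomyocytes averaged 3.86 ± 0.36 CPM and epicardial cells 0.89 ± 0.62 CPM, so Nfatc1 was not spread evenly over the non-endothelial classes. Some endocardial gate genes are also made by mesenchyme, since the mural list summed to 593 to 661 CPM and the valve list to 471 to 635 CPM there, and their part in the Nfatc1 value was not tested.

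Among 11298 genes compared over 24 library sums (6 classes in 4 libraries), the nearest neighbours of the factors by Pearson correlation of log2(CPM + 1) included other members. Gata5 was most like Hand2 (r = 0.94), and Hand2 was most like Hand2os1 (r = 0.94), its antisense neighbour. Tal1 was most like Adcy4 and Eng (r = 0.99 and 0.98), the latter an endothelial TGF-beta co-receptor. Hand1 was most like Bmp10 (r = 0.96), the trabecular ligand used in the trabecular gate, Gata6 like Notch2 (0.98), Gata4 like Bmpr1a (0.96), Nkx2-5 like Tmem182 (0.98) and Nfatc1 like Zfp326 (0.96), with Foxc2, a valve gate gene, next (0.95). Mef2c had the least close neighbour, Stox2 (0.90). The 24 points share libraries and depth and are not independent, so these coefficients only describe the pattern. Hand2 (chr8:57320983-57324633, plus strand) and Hand2os1 (chr8:57281117-57324233, minus strand) overlap over 3251 bases in GRCm38, and whether the counting used strand is not stated in the sources used here.

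The comparison of eKO with control asked whether these factors follow the loss of Ets1. In mural endocardium 1 of 8 members tested was called, Nfatc1, where 3.68% of all genes were called. Nfatc1 measured 119 and 121 CPM in control libraries against 78.8 and 53.9 CPM in the eKO libraries. Both eKO values lay under both control values, with eKO replicate 2 the lowest, and in 52.6% of all genes tested in that class the groups did not overlap. The log2 fold change was -0.81 (SE 0.16, adjusted p = 0.023, edgeR quasi-likelihood test), and over the whole endocardium it was -0.66 (SE 0.16, adjusted p = 0.047, edgeR), with 128 and 135 against 95.1 and 66.4 CPM, as the 1 called member of 8 tested where 3.29% of all genes were called. Leaving out any single library kept the sign and moved the mural value between -1.09 and -0.57, and the call was lost, as every other call there, without control replicate 1 (adjusted p = 0.52, edgeR) or control replicate 2 (0.42). In the whole endocardium the call was lost without control replicate 1 (-0.71, adjusted p = 0.14, edgeR), control replicate 2 (-0.58, 0.20) or Ets1 eKO replicate 2 (-0.44, 0.12), with no doublets removed (-0.67, 0.051) and with the endothelium split by single genes (-0.63, 0.12).

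**Figure D3:**
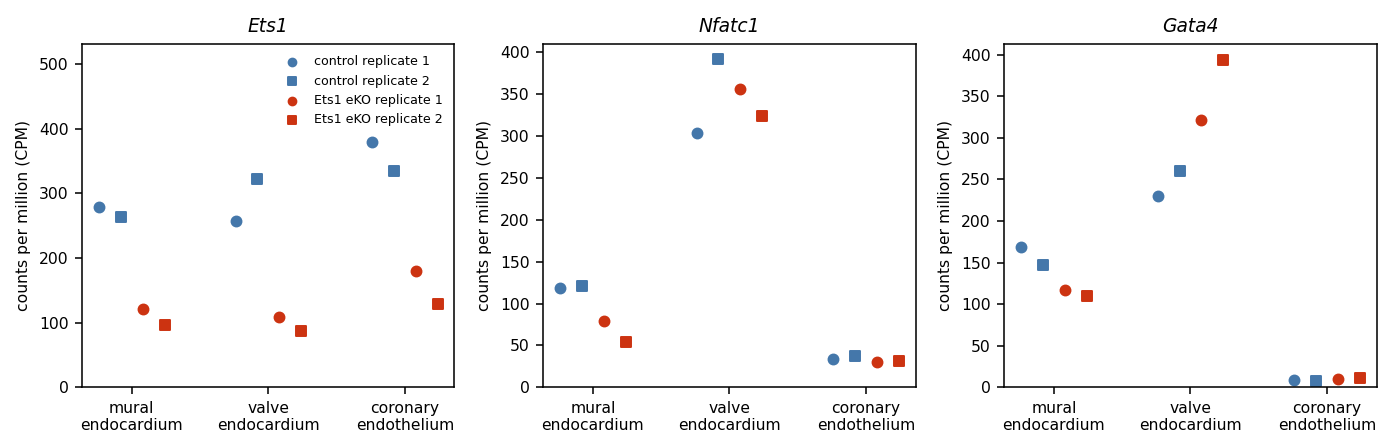
Ets1, Nfatc1 and Gata4 in CPM in each of the 4 libraries, for mural endocardium, valve endocardium and coronary endothelium, on linear axes from 0. Ets1 is lower in both eKO libraries in each class, Nfatc1 is lower in the eKO libraries of mural endocardium but mixed in valve cells, and Gata4 is lower in the eKO libraries of mural endocardium and higher in those of valve endocardium.

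The share of mural cells with an Nfatc1 UMI followed the level. With each cell thinned to 2000 UMIs, 18.4% (95% exact Clopper-Pearson interval 15.7 to 21.3) and 18.6% (15.5 to 22.1) of control cells had one, against 11.8% (9.51 to 14.4) and 9.02% (7.39 to 10.9) of eKO cells. These shares are of 789, 564, 694 and 1098 cells, with 25, 14, 23 and 59 shallower cells left out. The difference in means was -8.08 percentage points, and the exact permutation test over 2 against 2 libraries gave p = 0.33, the smallest it allows. Without thinning the difference was -20.7 points, at median depths of 6914, 7535, 7060 and 4387 UMIs. The mean share of valve cells with an Nfatc1 UMI was also lower in eKO, but the valve level of Nfatc1 overlapped between groups. At 2000 UMIs the mean share was 52.6% (SD 19.9) in controls and 42.2% (SD 9.4) in eKO. That difference lay within the spread between libraries (exact permutation p = 0.67). The valve difference, eKO minus control, was -10.3 points at 2000 UMIs, -16.0 points at 1000 UMIs and -26.3 points with all UMIs. Median depths of the valve cells were 7951, 8197, 7424 and 4164.5 UMIs. Cardiomyocytes, which make little Nfatc1, had one in 0.73% to 0.97% of thinned cells, well under any endocardial share. Some marker lists of other cells in the mural class also moved with the groups. The 8 mesenchyme markers, all 8 detected, summed to 503 and 464 CPM in controls against 620 and 627 CPM in eKO. The 8 vessel wall markers, all 8 detected, summed to 75.4 and 74.6 CPM in controls against 114 and 99 CPM in eKO. The 8 cardiomyocyte markers, all 8 detected, summed to 911 and 543 CPM in controls against 916 and 1109 CPM in eKO. For that list control replicate 1 and eKO replicate 1 were nearly equal, and the controls lay far apart. The coronary, valve, epicardial and immune lists overlapped between groups. The part of these cells in the mural values of Nfatc1, the other members or their partner genes was not tested. The 7 mural endocardial markers summed to 3947 and 3865 CPM in controls against 3499 and 3208 CPM in eKO.

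Gata4 showed a similar order of libraries in mural endocardium without passing the test. It measured 169 and 147 CPM in controls against 117 and 109 CPM in eKO. The groups did not overlap, as in 52.6% of all genes tested in that class. The log2 fold change of Gata4 was -0.43 (SE 0.13, adjusted p = 0.085, edgeR). It passed when Ets1 eKO replicate 1 was left out (-0.47, adjusted p = 0.027, edgeR). It was also lower in eKO libraries of cardiomyocytes, which lie outside the Tie2Cre lineage (260 and 297 against 233 and 188 CPM; -0.29, SE 0.15, adjusted p = 0.44, edgeR), and of epicardial cells (253 and 258 against 218 and 188 CPM; -0.27, SE 0.18, adjusted p = 0.90, edgeR). The share of all genes whose groups did not overlap was not counted in cardiomyocytes or epicardial cells. Ets1 eKO replicate 2 gave the lowest Gata4 value in 4 of the 5 classes where the gene averaged 10 CPM or more. In valve endocardium the order was reversed, with 229 and 260 CPM in controls against 321 and 394 CPM in eKO (0.57, SE 0.22, adjusted p = 0.61, edgeR), and in 37.1% of all genes tested there the groups did not overlap. Those valve sums hold 81, 75, 118 and 113 Gata4 UMIs.

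The Gata4 change differed between the mural and the valve endocardium by the test of the difference itself. The interaction, mural minus valve, was -1.02 on the log2 scale (SE 0.24, adjusted p = 0.018, edgeR), the 1 call among 7 members tested where 0.61% of all genes were called. It was lost without control replicate 1 (-0.84, adjusted p = 0.50, edgeR), without Ets1 eKO replicate 2 (-0.82, 0.21) and under the stricter gate, which leaves 9, 9, 18 and 15 valve cells (-0.82, adjusted p = 1). The same interaction was -0.84 for Nfatc1 (SE 0.23, adjusted p = 0.080, edgeR), whose valve values overlapped between groups (303 and 392 against 357 and 324 CPM), and -1.30 for Mef2c (SE 0.38, adjusted p = 0.13, edgeR). Nfatc1 passed without Ets1 eKO replicate 1 (-1.05, adjusted p = 0.031, edgeR), and the Mef2c value turned to 1.12 under the stricter gate. Markers of other cells in the valve class also moved with the groups: the mesenchyme list summed to 575 and 593 CPM in controls against 506 and 414 CPM in eKO (7 of 8 markers detected), the cardiomyocyte list to 717 and 590 against 759 and 1139 CPM (8 of 8) and the coronary list to 159 and 121 against 196 and 233 CPM (6 of 7). Their part in the Gata4 result was not tested. Mef2c in valve cells measured 31.2 and 31.2 CPM in controls against 76.2 and 66.2 CPM in eKO, or 11, 9, 28 and 19 UMIs (log2 fold change 1.22, SE 0.36, adjusted p = 0.43, edgeR). Gata6 in valve cells measured 133 and 135 CPM in controls against 70.8 and 94.0 CPM in eKO (-0.69, SE 0.27, adjusted p = 0.62, edgeR). None of 7 members tested was called in valve endocardium, where 0.0532% of all genes were, and 3 had an unadjusted p under 0.05, as did 6.99% of all genes.

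Gata6 and Tal1 were lower in the mural eKO sums by margins that did not pass the test. Gata6 measured 180 and 176 CPM in controls against 155 and 142 CPM in eKO (-0.21, SE 0.12, adjusted p = 0.35, edgeR), and it was close to that in cardiomyocytes (147 and 148 against 128 and 113 CPM; -0.17, SE 0.12). Tal1 measured 68.4 and 52.4 CPM against 48.1 and 44.1 CPM (-0.34, SE 0.15, adjusted p = 0.23, edgeR). Gata5 (19.4 and 18.1 against 20.8 and 14.4 CPM), Hand2 (188 and 195 against 190 and 149 CPM) and Mef2c (254 and 262 against 274 and 203 CPM) overlapped between groups, with log2 fold changes of -0.05 (SE 0.21), -0.13 (SE 0.14) and -0.07 (SE 0.15). Without Ets1 eKO replicate 2 the last 3 values turned to 0.18, 0.03 and 0.12. Over the 8 members tested the median change was -0.17, beside 0.00 over all genes tested in mural endocardium.

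In coronary endothelium, where Ets1 was lower by the same test (379 and 334 against 180 and 129 CPM; log2 fold change -1.13, SE 0.17, adjusted p = 0.0099, and 0.066 without control replicate 1, edgeR), none of 6 members tested was called and 0.695% of all genes were. Nfatc1 measured 33.5 and 37.6 CPM in controls against 30.8 and 31.3 CPM in eKO (-0.10, SE 0.16), and Mef2c 445 and 441 against 410 and 349 CPM (-0.14, SE 0.15). Marker lists in the coronary class moved with the groups too: the 3 compact cardiomyocyte markers, all detected, summed to 47.3 and 36.1 CPM in controls against 103 and 81.3 CPM in eKO, the 7 mural endocardial markers, all detected, to 190 and 193 against 170 and 159 CPM, and the 7 coronary markers, all detected, to 9012 and 7498 against 9542 and 10791 CPM. The 8 cardiomyocyte markers, all detected, overlapped between groups at 525 to 797 CPM. The part of these cells in the coronary values of Ets1, the members or their partner genes was not tested. No coronary member had an unadjusted p under 0.05, as 13.1% of all genes had. The difference of change between endocardium and coronary endothelium was called for none of 8 members, where 2.5% of all genes were called, and 3 members had an unadjusted p under 0.05, as did 12% of all genes. Its smallest adjusted p among members was that of Nfatc1 (-0.54, SE 0.17, adjusted p = 0.067, edgeR), followed by Gata4 (-0.75, SE 0.25, adjusted p = 0.11, edgeR). Nfatc1 passed without Ets1 eKO replicate 1 (-0.86, adjusted p = 0.0071, edgeR), and Gata6 without control replicate 1 (-0.76, adjusted p = 0.032, edgeR). With all endothelial cells taken as 1 class, a grouping added after the data were seen, Nfatc1 measured 102 and 119 against 87.0 and 63.4 CPM and was not called (-0.50, SE 0.15, adjusted p = 0.14, edgeR), nor was any of the 8 members tested, where 2.07% of all genes were. That class gave 289 calls in all, and from 130 without control replicate 1 to 1566 without Ets1 eKO replicate 1.

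**Figure D4:**
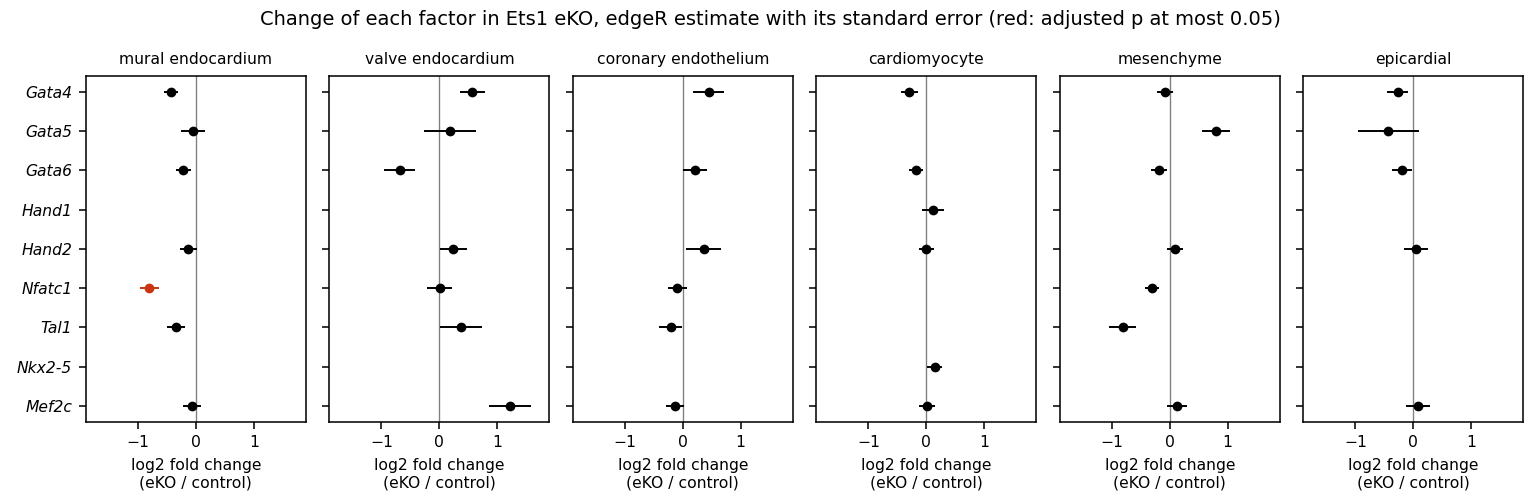
Log2 fold change of 9 factors, eKO against control, in 6 cell classes, with the standard error as a bar, for genes averaging at least 5 CPM in the class; red marks an adjusted p of at most 0.05. Nfatc1 in mural endocardium is the one red point, at -0.81, and Gata4 lies left of 0 in mural endocardium and right of 0 in valve endocardium.

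Outside the endothelium no member was called. In cardiomyocytes edgeR called 0% of 15975 genes and none of 10 members, while 1842 genes (11.5%) reached an unadjusted p under 0.05, and 29 genes passed in DESeq2. Nkx2-5 measured 103 and 128 CPM in controls against 118 and 117 CPM in eKO (0.15, SE 0.13), Hand1 16 and 15.6 against 12.9 and 18.7 CPM (0.12, SE 0.19), Hand2 62.8 and 69.7 against 69.5 and 53.0 CPM, and Mef2c 195 and 215 against 212 and 172 CPM. The groups of these 4 genes overlapped. Hand1 was called without Ets1 eKO replicate 1 (0.39) and stood at -0.21 without Ets1 eKO replicate 2. The 6 trabecular markers, all detected, summed in cardiomyocytes to 2319 and 2358 CPM in controls against 2086 and 4046 CPM in eKO. The part of trabecular cells in the Hand1 values was not tested. Isl1 was the one member with an unadjusted p under 0.05 in cardiomyocytes, on 38, 65, 2 and 14 UMIs (0.61, 1.82, 0.04 and 0.30 CPM; log2 fold change -2.63, SE 0.77, adjusted p = 0.43, edgeR). It passed the threshold with no filter on low counts (-2.62, adjusted p = 1.3e-08, edgeR), without Ets1 eKO replicate 1 (-1.76, adjusted p = 0.0062, edgeR) and without Ets1 eKO replicate 2 (-4.61, adjusted p = 5.7e-05, edgeR). Vessel wall cells moved with it: they numbered 96, 194, 44 and 31 and held 4, 41, 0 and 0 Isl1 UMIs, and mesenchyme held 6, 22, 1 and 1. Their part in the Isl1 values was not tested.

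In mesenchyme edgeR called 0% of 13536 genes and none of 8 members, with 909 genes (6.72%) at an unadjusted p under 0.05 and 4 genes called by DESeq2. Ets1 itself measured 95 and 90.7 CPM in control mesenchyme and 57.3 and 56.8 CPM in eKO (-0.63, SE 0.12, adjusted p = 0.51, edgeR). The 3 members with an unadjusted p under 0.05 were Tal1 (10.2 and 10.3 against 6.24 and 4.68 CPM; -0.82, SE 0.23), Gata5 (7.31 and 10.9 against 13 and 17.3 CPM; 0.80, SE 0.24) and Nfatc1 (-0.31, SE 0.12), all with adjusted p of 0.68 to 0.73 by edgeR. Gata5 passed with no filter on low counts (0.79, adjusted p = 0.032, edgeR). Some marker lists in mesenchyme moved with the groups too. The 8 vessel wall markers summed to 255 and 300 CPM in controls against 248 and 189 CPM in eKO. The 8 cardiomyocyte markers summed to 1362 and 943 against 1385 and 1613 CPM, and the 8 immune markers to 3.02 and 4.02 against 5.4 and 11.3 CPM. The endothelial, coronary, epicardial, mural and valve lists overlapped between groups. The part of such cells in the mesenchyme values was not tested. In epicardial cells edgeR called 0.0217% of all genes and none of 5 members tested, and none of the 5 had an unadjusted p under 0.05, as 5.6% of all genes had. Hand2 there measured 85.0 and 120 against 90.1 and 112 CPM.

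The partner genes of these factors, 39 genes in 5 lists drawn up with earlier results of these data known, were counted in the same fits. In mural endocardium 38 were tested, 1 was higher and 3 were lower in eKO, where 3.68% of all genes were called, and their median change was -0.12 beside 0.00 over all genes. All 4 belong to the NFAT list or to the list of TAL1-complex proteins and bHLH partners. Nfatc2, a second calcium-activated NFAT factor, measured 23.9 and 27.1 CPM in controls against 14.3 and 12.4 CPM in eKO (-0.88, SE 0.19, adjusted p = 0.028, edgeR). It was the 1 call among the 12 calcineurin and NFAT genes, all tested, and it was lost in DESeq2 (adjusted p = 0.077) and without Ets1 eKO replicate 2 (adjusted p = 0.055, edgeR). No calcineurin subunit gene (Ppp3ca, Ppp3cb, Ppp3cc, Ppp3r1) or Rcan gene was called.

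Of the 8 genes of TAL1-complex proteins and bHLH partners, 2 fell and 1 rose in mural endocardium, where 3.68% of all genes were called. Ldb2, a LIM-domain-binding cofactor, measured 320 and 322 CPM in controls against 176 and 170 CPM in eKO (-0.84, SE 0.13, adjusted p = 0.0039, edgeR). Cbfa2t3, a corepressor found in TAL1 complexes, measured 162 and 169 against 101 and 80.7 CPM (-0.82, SE 0.14, adjusted p = 0.0081, edgeR). Lyl1, the bHLH gene nearest to Tal1 in sequence, rose from 31.6 and 34.1 CPM to 50.6 and 49.3 CPM (0.66, SE 0.14, adjusted p = 0.031, edgeR). Lyl1 missed the threshold in DESeq2 (adjusted p = 0.067) and under the stricter gate (adjusted p = 0.050, edgeR). In coronary endothelium the 1 called partner gene was Ldb1, the other LIM-domain-binding cofactor, at 33.1 and 33.2 CPM in controls against 13.4 and 13.8 CPM in eKO (-1.20, SE 0.19, adjusted p = 0.010, edgeR), where 0.695% of all genes were called. Ldb1 was lower in both eKO libraries in the other classes too, at 53.4 and 43.3 against 32.1 and 32.5 CPM in endocardium, 24.7 and 24.5 against 15.5 and 16 CPM in cardiomyocytes, and 33.9 and 35.7 against 21.6 and 26.1 CPM in mesenchyme, without being called there. Its change was not shown to differ between endocardium and coronary endothelium (0.68, SE 0.21, adjusted p = 0.064, edgeR).

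The difference of change between endocardium and coronary endothelium was called for 5 of 38 partner genes tested, where 2.5% of all genes were called. Ldb2 was lowered more in endocardium (304 and 306 against 167 and 164 CPM) than in coronary endothelium (445 and 424 against 341 and 319 CPM; difference of change -0.49, SE 0.10, adjusted p = 0.00070, edgeR). Zfpm2, the FOG2 cofactor of GATA factors, measured 218 and 237 CPM in control and 318 and 284 CPM in eKO endocardium, but 213 and 250 against 181 and 171 CPM in coronary endothelium. Its difference of change was 0.78 (SE 0.10, adjusted p = 1.5e-07, edgeR), although neither change alone was called. Lyl1 (0.78, SE 0.22), Hdac9 (0.55, SE 0.13) and Hand2os1 (-1.48, SE 0.36, on coronary levels of 0.72 to 7.39 CPM) also differed by this test. Lyl1 lost the call without control replicate 1 (0.41) or either eKO library (0.72 and 0.79) and under total count scaling (adjusted p = 0.059, edgeR), Hdac9 without control replicate 2 (0.52) or Ets1 eKO replicate 1 (0.38), Hand2os1 without control replicate 2 (-1.06) or Ets1 eKO replicate 2 (-1.39) while it stood at -3.33 without control replicate 1, Ldb2 without Ets1 eKO replicate 2 (-0.54), and Lyl1, Hdac9 and Hand2os1 also under the stricter gate. Between mural and valve endocardium 2 of 35 were called, where 0.61% of all genes were. Lmo2 (-0.98, SE 0.24, adjusted p = 0.033, edgeR) and Hdac9 (-2.69, SE 0.60, adjusted p = 0.014, edgeR) differed. Hdac9, which encodes a class IIa deacetylase that binds MEF2 proteins, measured 8.50 and 6.94 CPM in control and 68.1 and 55.7 CPM in eKO valve cells. The control valve sums hold only 352973 and 288379 UMIs of all genes, so these control values of Hdac9 lie near the floor of 3 counts. Both genes lost the call when either control library was left out and under the stricter gate, where Hdac9 stood at -0.24 (SE 2.05), and Lmo2 also without Ets1 eKO replicate 2 (-0.80).

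**Figure D5:**
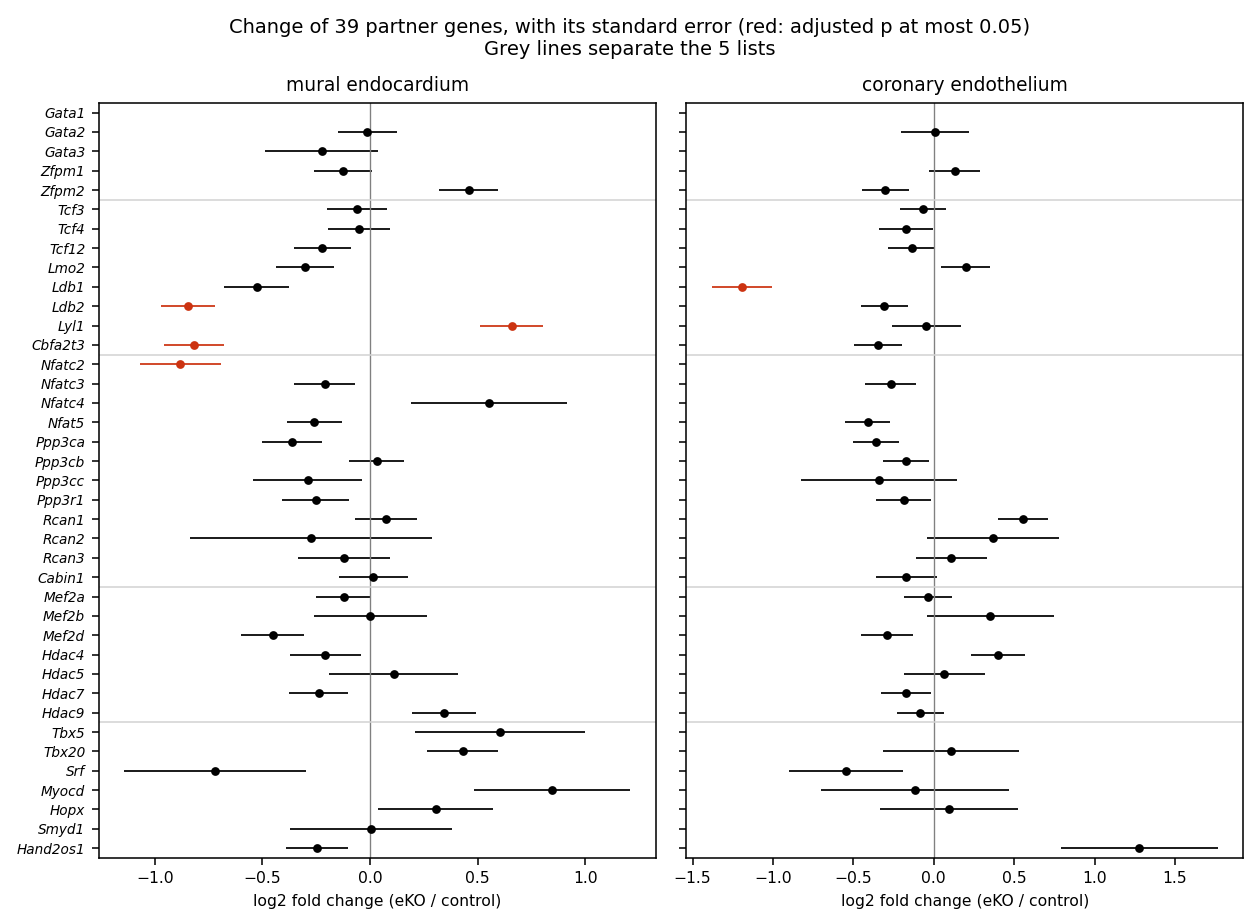
Log2 fold change, eKO against control, of the 39 partner genes in mural endocardium and coronary endothelium, with the standard error as a bar; red marks an adjusted p of at most 0.05 and grey lines part the 5 lists. Ldb2, Cbfa2t3 and Nfatc2 lie to the left and Lyl1 to the right in mural endocardium, and Ldb1 is the one red point in coronary endothelium. Genes with no point were not tested in that class.

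The other GATA genes and cofactors gave no call in mural endocardium or coronary endothelium, where 3.68% and 0.695% of all genes were called. Of 5 genes, 4 were tested in mural endocardium with a median change of -0.07, and Gata2, the endothelial GATA factor, stayed at 46.6 to 51.2 CPM in the 4 mural sums. Gata1, the erythroid GATA factor, was the one not tested. The 7 MEF2-family and class IIa deacetylase genes and the 7 other cardiac partner genes also gave none in mural endocardium, with medians of -0.12 and 0.30. Tbx20, a T-box gene of the heart, measured 23.9 and 28.1 against 35.5 and 32.0 CPM there and was not called.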

How the data were processed

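The 4 deposited matrices hold raw UMI counts per gene and barcode, whole numbers made by the authors with Cell Ranger 7.1.0 on mm10 from 10x Chromium 3' libraries; the submitters' notes also name Seurat 4.3.0. The study's own steps to remove ambient RNA were not applied here, and whether counting used strand or introns is not given in the sources used here.

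Cells were kept if they had between 200 and 7000 genes and no more than 20% of UMIs from mitochondrial, 35% from ribosomal and 2% from haemoglobin genes. Doublets were called by nearest neighbours among simulated doublets, at a rate of 0.8% per 1000 cells. Each cell was scored on marker lists (mean log-normalised level over the list's 99th percentile) and gated to the top list if its score was at least 0.4 and at least 2 times the next; 83.2% of cells were gated, 9.01% of cells lay near the ratio cut, and the rest entered no class. Endothelial cells were gated again into mural, valve and coronary classes, which 73.2% of them entered. Cardiomyocytes were gated again into compact and trabecular cells, and 52.0% of them entered either class. The names rest on these gates, so a difference from the study's own classes may come from them.

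For each class, the UMIs of a library were added up per gene and fitted with edgeR 4.0.16 (TMM scaling, genes kept by filterByExpr, quasi-likelihood test, Benjamini-Hochberg adjustment over all genes tested, threshold 0.05; R 4.3.3) in 2 control against 2 Ets1 eKO libraries. Levels between classes, and differences of change, were fitted with the library as a block. Over the fitted sums, median UMIs per cell ranged from 3938.5 in mesenchyme of Ets1 eKO replicate 2 to 12646 in compact cardiomyocytes of control replicate 2. Among immune cells, which were not fitted, the median went down to 3534 in Ets1 eKO replicate 2. Every member was named. Partner genes were named where called for the change in mural endocardium or coronary endothelium, or for a difference of change. Calls of partner genes for a difference of level between classes were not given. Uncalled partner values (Gata2, Tbx20 and the values of Ldb1 and Zfpm2 outside their calls) were chosen after they were seen. The members, lists and tests were chosen with earlier results of these data known. Scripts were tested on simulated data.

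Results were recomputed in DESeq2 1.42.0, with scaling to total counts, with low-count genes kept, and with the replicate number as a block, then under a stricter gate, a stricter cell filter, doublets kept, a split of endothelium by single genes, other depths of thinning, and each library left out.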

Additional observations from a re-analysis of the deposited data

Results flagged for a closer look

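A single result met the criteria for a closer look. The Gata4 change, eKO against control, differed between mural and valve endocardium by the test of the difference itself, at -1.02 on the log2 scale (SE 0.24, adjusted p = 0.018, edgeR's quasi-likelihood test). Both eKO libraries were below both controls in mural cells (169 and 147 against 117 and 109 CPM) and above both in valve cells (229 and 260 against 321 and 394 CPM). The groups did not overlap in 52.6% of all genes tested in mural and 37.1% in valve endocardium. Neither change passed the test within its own class. The share of valve cells with a Gata4 UMI at 2000 UMIs per cell was 34.1% ± 8.34 in controls and 41.5% ± 8.42 in eKO (SD, n = 2 each), within the spread between libraries (exact permutation p = 0.67, where 0.33 is the smallest possible). With all UMIs the difference, eKO minus control, was -10.6 points. The valve class held 39, 32, 49 and 64 cells.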

How the results depend on the processing

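Of 86 member values under 790 alternatives, 721 kept their direction and side of the threshold, 14 lost and 14 gained a call with the same sign, and 41 changed sign, 15 of these without a library being left out. Of the 41, 2 uncalled values also gained a call. Causes were not tested. Ets1 eKO replicate 2 had the fewest UMIs per cell (median 5632), and the valve class holds 184 cells. Calls in the 2 against 2 design move widely when a library is left out.

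Counts of genes called by edgeR's quasi-likelihood test moved as follows. With no filter on low counts they were 1108 in endocardium (416 as reported), 773 in mural endocardium (459), 65 in valve endocardium (3), 324 in coronary endothelium (77), 337 in cardiomyocytes (0), 188 in mesenchyme (0) and 21 in epicardial cells (2). Under the stricter gate they were 263 in endocardium, 255 in mural and 0 in valve endocardium, 1 in mesenchyme and 1 in epicardial cells, 134 for the change that differs between endocardium and coronary endothelium (320), 11 for that between mural and valve endocardium (72), and 1569 for the level that differs between mural and valve endocardium (2599). DESeq2 called 1 gene in valve endocardium, 29 in cardiomyocytes, 4 in mesenchyme and 0 in epicardial cells. Total count scaling gave 119 in coronary endothelium, 1 in cardiomyocytes and 1 in mesenchyme. The split by single genes gave 265 in endocardium, and epicardial cells gave 4 with no doublets removed and 0 with the stricter cell filter.

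The replicate number as a block gave 711 genes in endocardium, 264 in coronary endothelium, 97 in cardiomyocytes, 8 in valve endocardium and 17 in epicardial cells. The labels share numbers between groups but do not pair the libraries: the correlation of same-numbered deviations ran from -0.09 in cardiomyocytes to 0.01 in mural endocardium. The block (replicate block) turned Hand2 in cardiomyocytes to -0.0065 and gave a call to Isl1 there (-2.76, adjusted p = 0.00012, edgeR).

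With each library left out in turn, the counts ran from 191 to 1023 in endocardium, 0 to 1455 in mural endocardium, 3 to 88 in valve endocardium, 54 to 879 in coronary endothelium, 5 to 2693 in cardiomyocytes, 11 to 62 in mesenchyme, 0 to 24 in epicardial cells, 120 to 348 for the change that differs between endocardium and coronary endothelium and 36 to 92 for that between mural and valve endocardium. Mural endocardium gave 0 calls when either control library was left out.

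Log2 values that changed sign with a library left out ran, in endocardium, from -0.25 to 0.18 for Gata5, -0.25 to 0.030 for Hand2 and -0.27 to 0.12 for Mef2c. In mural endocardium they ran from -0.32 to 0.18 for Gata5, -0.30 to 0.027 for Hand2 and -0.29 to 0.12 for Mef2c. In valve endocardium the range was -0.44 to 1.11 for Gata5 and -0.16 to 0.21 for Nfatc1, and in coronary endothelium it was -0.017 to 0.54 for Gata6. In cardiomyocytes it was -0.21 to 0.39 for Hand1, -0.17 to 0.16 for Hand2 and -0.10 to 0.13 for Mef2c. In mesenchyme it was -0.18 to 0.013 for Gata4, -0.038 to 0.24 for Hand2 and -0.15 to 0.35 for Mef2c, and in epicardial cells -0.19 to 0.30 for Hand2. The difference of change between endocardium and coronary endothelium ran from -0.27 to 0.072 for Tal1 and -0.033 to 0.18 for Mef2c, that between mural and valve endocardium from -1.19 to 0.42 for Gata5, and the mural minus valve level of Tal1 from -0.10 to 0.27.

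Other changes of sign were those of Nfatc1 in valve endocardium with total count scaling (-0.023), no doublets removed (-0.052) and the stricter cell filter (-0.0044), Hand2 in cardiomyocytes with total count scaling (-0.11) and the stricter cell filter (-0.019), Mef2c in cardiomyocytes with total count scaling (-0.10), and Hand2 in epicardial cells with total count scaling (-0.013) and the stricter cell filter (-0.026). The stricter gate turned Mef2c in mural endocardium to 0.018, the mural minus valve change to 0.13 for Gata5 and 1.12 for Mef2c, and the Tal1 level to -0.13. Total count scaling gave endocardium minus cardiomyocyte levels of 0.26 for both Gata6 and Mef2c, each then called. The share of valve cells with a Gata4 UMI turned to -10.6 percentage points with all UMIs.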

Other observations

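Outside the classes compared above, Mef2c was higher in immune cells (733, 770, 792 and 488 CPM) and in vessel wall cells (595, 348, 690 and 483 CPM) than in cardiomyocytes (195, 215, 212 and 172 CPM), and the ranges did not overlap. Immune cells also held Nfatc1 at 43.1, 58.1, 53.3 and 42 CPM and Tal1 at 22.1, 32.9, 19.5 and 19.3 CPM. These levels were not tested, and each order is that of control replicate 1, control replicate 2, eKO replicate 1 and eKO replicate 2.

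In vessel wall cells control replicate 2 stood above the other libraries for several of the factors, the values below being picked after they were seen. Gata6 measured 128, 375, 58.5 and 80.5 CPM there, Hand1 4.15, 21, 0 and 5.37 CPM, Hand2 35.2, 70, 39.8 and 21.5 CPM, and Isl1 4.15, 28.7, 0 and 0 CPM. That library held 194 of these cells, against 96, 44 and 31 in the others, and the 8 vessel wall markers, all detected, summed to 2880, 8184, 1823 and 2103 CPM, so it stood apart in the markers of the class as well. The part of this in the factor values was not tested.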
